A study of Mus musculus with 2 samples.

Results

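The steroid 5-alpha-reductase genes Srd5a1, Srd5a2 and Srd5a3, the 11-beta-hydroxysteroid dehydrogenase genes Hsd11b1 and Hsd11b2, and the 17-beta-hydroxysteroid dehydrogenase family genes Hsd17b3, Hsd17b4, Hsd17b10, Hsd17b11 and Hsd17b12 were examined in the mouse adrenal gland. They were chosen by symbol. Each symbol matched 1 gene ID of the GENCODE M21 annotation, so the group holds 10 of the 55536 annotated genes in the tables, 22015 of which are nuclear protein-coding genes. The samples are 2 libraries of total RNA from whole adrenal glands of adult males of B6CASTF1/J, an F1 cross between C57BL/6J and CAST/EiJ mice, obtained from The Jackson Laboratory at an age of 8 to 10 months. The labels call them biological replicates 1 and 2 and number the animals 2 and 4, although both carry the same donor record. No treatment is named, and there is 1 group and no contrast between conditions, so levels, ratios within an animal, transcript shares and the difference between the animals are described without a test.

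Steroid 5-alpha-reductases use NADPH to remove the double bond of the A ring from testosterone, progesterone and corticosteroids. Hsd11b1 and Hsd11b2 work in opposite directions on glucocorticoids: Hsd11b1 with NADPH regenerates corticosterone, the main glucocorticoid of mice, and Hsd11b2 with NAD inactivates it. The Hsd17b family takes its name from the interconversion of androgens and oestrogens at carbon 17, but several of its enzymes act chiefly on fatty acids, acyl-CoA esters or the mitochondrial tRNA machinery.

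Expected counts, the read counts estimated for each gene, summed to 29994901 in replicate 1 and 33987434 in replicate 2. Levels are in TPM, a unit scaled per transcript length and to a common total, of which nuclear protein-coding genes took 36.6% and 38.2% and misc_RNA genes 43.0% and 38.6%. The adrenal label was checked with markers: 8 of 8 markers of the zona fasciculata, the corticosterone-making layer, reached 1 TPM in both animals, against 0 of 10 kidney markers. Of the other organs listed, 5 of 8 liver markers also did, with sums of 20.9 and 76.4 TPM. Most of the rise in this sum lay in Cyp2e1, at 5.73 and 59.1 TPM, while Alb was at 7.38 and 8.4 TPM. Among testis and Leydig cell markers, 2 of 6 reached 1 TPM in both animals, with sums of 9.49 and 5.07 TPM. The glands differed in other cells. All 11 adipocyte markers were detected, none of them at 0, and summed to 378 TPM in replicate 1 and 2610 TPM in replicate 2, while the 10 chromaffin cell markers of the medulla summed to 3887 and 2848 TPM. In bulk tissue, fewer cells of a type and less RNA per cell cannot be told apart.

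Srd5a2 dominated the group. It stood at 1359 TPM in replicate 1 and 1504 TPM in replicate 2, while the other 9 genes lay between 0.21 and 54.7 TPM. At 1432 ± 102 TPM (SD, n = 2 animals), Srd5a2 held rank 11 in replicate 1 and rank 7 in replicate 2 among the 22015 nuclear protein-coding genes. It made up 87.2 ± 0.743% of the summed TPM of the 10 genes. With Srd5a2 set aside, the order was Hsd17b12, Hsd17b10, Hsd17b4, Hsd17b11, Hsd11b1, Srd5a3, Srd5a1, Hsd17b3 and Hsd11b2, and it was the same in both animals. The values overlapped across animals for the neighbours Hsd17b10 and Hsd17b4, Hsd17b4 and Hsd17b11, and Hsd17b11 and Hsd11b1. Within each animal the first gene of each of these pairs was the higher. For the other 5 neighbour pairs both values of the higher gene lay above both of the lower.

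**Figure D1:**
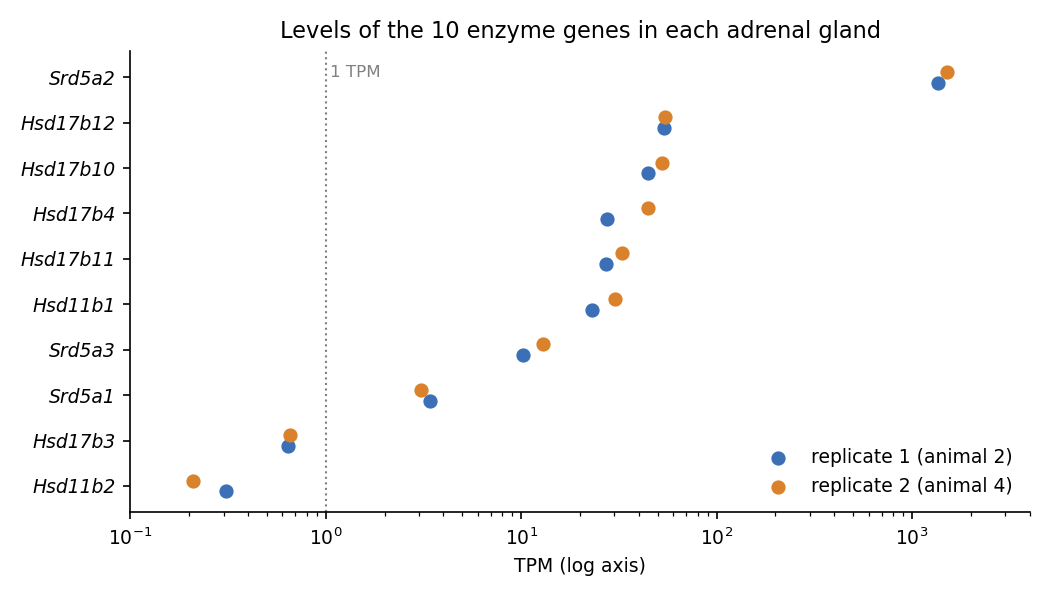
TPM on a log axis of each of the 10 genes in replicate 1 (blue) and replicate 2 (orange), ordered by mean, with the detection minimum of 1 TPM dotted. Srd5a2 lies 26.4 times above the next gene by the ratio of their means, and Hsd17b3 and Hsd11b2 lie below 1 TPM in both animals.

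At 1 TPM or more in both animals, 8 of the 10 genes were detected, and 56.3% of nuclear protein-coding genes met the same rule. The exceptions were Hsd17b3 and Hsd11b2. Srd5a1 was the lowest of the detected genes. With TPM rescaled over nuclear protein-coding genes alone, every level was higher, for example 3828 for Srd5a2 and 1.74 for Hsd17b3, since much of the deposited scale is taken by other RNA classes.

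Srd5a1 and Srd5a2 encode the pair of enzymes that reduce steroid hormones. Srd5a1 (ENSMUSG00000021594.11; chromosome 13, 69573449 to 69611442, minus strand, mm10) was at 3.41 TPM in replicate 1 and 3.06 TPM in replicate 2, from 196 and 225 counts. Srd5a2 (ENSMUSG00000038541.8; chromosome 17, 74016955 to 74047916, minus strand) was carried by 57312 and 68129 counts, or 0.191% and 0.200% of all counts on annotated genes. Every value of Srd5a2 lay far above every value of Srd5a1. Within an animal the ratio of Srd5a2 to Srd5a1 was 399 and 492, with a mean of 445 ± 65.7 (SD, n = 2).

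These genes share a layout of 5 coding exons, 4 of them of equal length. Over the 598 bases of the equal-length coding exons, compared position by position without alignment, 47.7% were identical. The share ran from 32.4% in coding exon 1 to 75% in coding exon 5. Coding exon 3, with 102 bases in both genes, is shown as 1 example of these. Capitals mark the 44 bases that differ, from the GENCODE M21 transcripts on mm10 (minus strand, 5′ to 3′), chr13:69594916-69595017 for Srd5a1 and chr17:74024454-74024555 for Srd5a2.
Srd5a1: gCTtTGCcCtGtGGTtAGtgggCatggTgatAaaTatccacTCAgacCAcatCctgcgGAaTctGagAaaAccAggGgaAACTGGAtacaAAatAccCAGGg
Srd5a2: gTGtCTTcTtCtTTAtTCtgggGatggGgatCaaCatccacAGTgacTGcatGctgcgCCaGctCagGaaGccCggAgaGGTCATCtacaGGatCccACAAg

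The bases before the start sites are shown because of the large gap in level between these genes. The window runs from base 250 to base 57 before the RefSeq start (GRCm38.p6, minus strand, 5′ to 3′), 194 bases that lie outside both leading transcripts, at chr13:69611520-69611713 for Srd5a1 and chr17:74047917-74048110 for Srd5a2. Capitals mark matches to 4 motifs searched on both strands. These were AAGGTCA, the core of a binding site of the adrenal regulator Nr5a1, then TATAAA for the TATA box, then CCAAT for the box of that name, and lastly GGGCGG for the GC box.
Srd5a1: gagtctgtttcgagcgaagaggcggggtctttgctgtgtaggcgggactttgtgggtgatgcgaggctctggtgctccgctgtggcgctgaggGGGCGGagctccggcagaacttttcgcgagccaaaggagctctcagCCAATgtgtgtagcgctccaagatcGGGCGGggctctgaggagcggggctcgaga
Srd5a2: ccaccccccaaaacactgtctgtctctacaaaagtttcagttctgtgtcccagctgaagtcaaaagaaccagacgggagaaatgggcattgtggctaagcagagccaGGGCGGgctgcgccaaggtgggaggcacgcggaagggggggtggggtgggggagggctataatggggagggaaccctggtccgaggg

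In these windows Srd5a1 had a CCAAT box at 111 bases and GC boxes at 157 and 86 bases before the start, and Srd5a2 had a GC box at 143 bases. Neither window held the Nr5a1 core or the TATA box as spelled, though the Srd5a2 window holds the letters TATAAT toward its end. Srd5a2-201, the only annotated transcript of Srd5a2, starts 56 bases before the RefSeq start. The Srd5a2 window therefore ends where this transcript begins. Bases nearer than 57 to the RefSeq start were not searched. A TATA box or other motif there would be missed in these genes and in the promoters below. Among the same windows of 32851 promoters of the RefSeq table, 3.27% held the Nr5a1 core, 8.90% the TATA box, 27.5% the CCAAT box and 23.6% the GC box. The windows of Srd5a1 and Srd5a2 held 16 and 6 CpG dinucleotides, where the median promoter window held 4. A match is a description of the letters only.

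Srd5a3, which reduces polyprenol to dolichol for protein glycosylation, was the second of the reductases at 10.2 TPM in replicate 1 and 13.0 TPM in replicate 2 (ENSMUSG00000029233.15; chromosome 5, 76140271 to 76155504, plus strand). Both values lay above those of Srd5a1. Of the summed TPM of the reductases, Srd5a2 held 99.0 ± 0.0457%, Srd5a3 0.796 ± 0.079% and Srd5a1 0.225 ± 0.0333% (SD, n = 2). The other 4 genes of dolichol synthesis matched, the cis-prenyltransferase subunits Dhdds and Nus1, the kinase Dolk and the phosphatase Dolpp1, had means of 20.3, 19.0, 11.4 and 6.88 TPM. Srd5a3 was thus in the range of its pathway, and Srd5a2 was not in the range of its nearest relatives.

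Srd5a2 was nearer to the enzymes that make corticosterone than to its own family. Cyp11b1, the enzyme of the last step to corticosterone, was at 1924 and 1712 TPM, and Srd5a2 reached 79.2 ± 12.2% of it. Its level was 27.3 ± 1.28% of that of Hsd3b1, the dehydrogenase that turns pregnenolone into progesterone, and 47.9 ± 8.87% of that of the 21-hydroxylase Cyp21a1. Against Cyp11a1, the side-chain cleavage enzyme, and Star, which delivers cholesterol to it, Srd5a2 stood at 40.6 ± 9.25% and 25.3 ± 7.7%. Both values of Srd5a2 lay below both values of each of these genes. The other genes listed for corticosteroid synthesis lay below both values of Srd5a2. They were Fdx1 at 1136 and 516 TPM, Fdxr at 741 and 690 TPM and Cyp11b2 at 203 and 262 TPM. The shares of Star, Cyp11a1, Cyp21a1 and Cyp11b1 were higher in replicate 2, where these genes were lower.

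**Figure D2:**
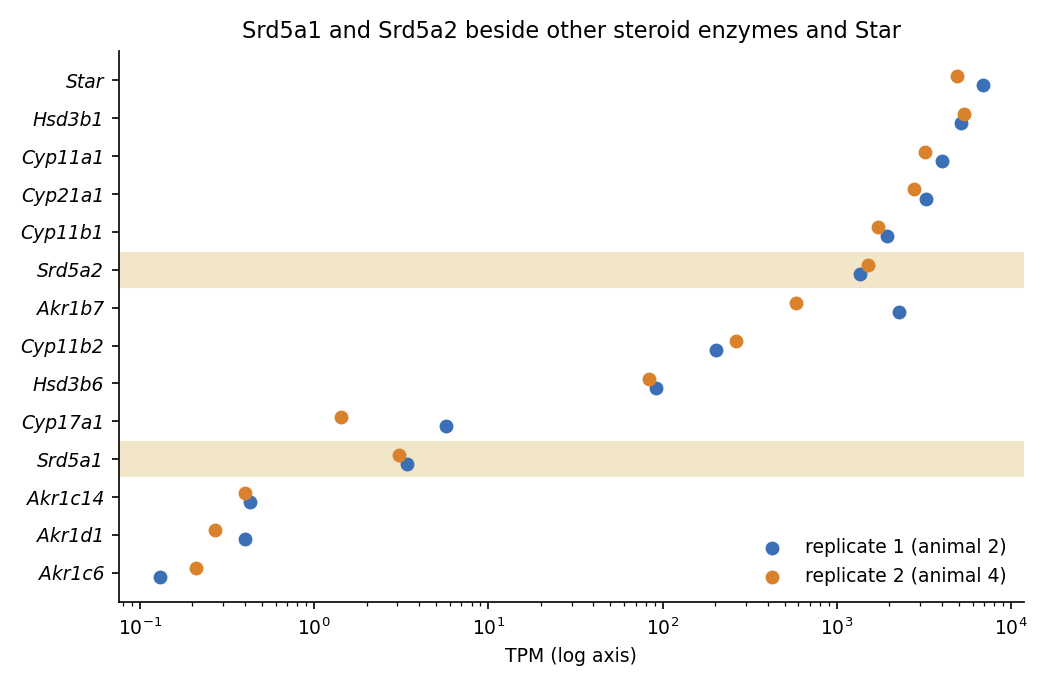
TPM on a log axis of Srd5a2 and Srd5a1 (shaded rows) beside Star and other steroid enzymes, replicate 1 in blue and replicate 2 in orange. Srd5a2 lies at 1359 and 1504 TPM just below Cyp11b1, and Akr1c14, Akr1d1 and Akr1c6 lie at or below 0.43 TPM.

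Other enzymes of reduced steroid metabolism were mostly low. Akr1c14, a 3-alpha-hydroxysteroid dehydrogenase that acts on 5-alpha-reduced steroids, was at 0.43 and 0.4 TPM. The 5-beta-reductase Akr1d1 was at 0.4 and 0.27 TPM, and Akr1c6, which acts at carbon 17, at 0.13 and 0.21 TPM. Among the 5 genes of this list only Akr1b7, an aldo-keto reductase that clears the aldehyde released by side-chain cleavage, was detected in both animals, at 2262 TPM in replicate 1 and 582 TPM in replicate 2. Akr1b7 therefore lay above Srd5a2 in replicate 1 and below it in replicate 2.

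Cyp17a1, the 17-alpha-hydroxylase of androgen synthesis, was at 5.7 TPM in replicate 1 and 1.43 TPM in replicate 2. Steroids were not measured, so these levels do not show whether androgen substrates of Srd5a2 were available. The aromatase Cyp19a1 was at 0 and 0.01 TPM, and the sulphotransferase Sult2a1 was listed at 0 in both. Hsd3b6, a second 3-beta-hydroxysteroid dehydrogenase, was at 91.7 and 83.5 TPM.

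Of the genes listed for NADPH and electron supply, 8 of 8 were detected, where 56.3% of nuclear protein-coding genes met the same rule. Which of them supply the reductases or Hsd11b1 in this gland was not tested. The highest were malic enzyme Me1 at 801 and 704 TPM and isocitrate dehydrogenase Idh1 at 227 and 270 TPM. Cytochrome b5 (Cyb5a) followed with a mean of 135 TPM and the reductase Por with 83.9 TPM. H6pd, which makes NADPH inside the endoplasmic reticulum and is the direct partner of Hsd11b1, was at 46.3 TPM in replicate 1 and 63.1 TPM in replicate 2.

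Hsd11b1 outweighed Hsd11b2. Hsd11b1 (ENSMUSG00000016194.14; chromosome 1, 193221634 to 193264075, minus strand) was at 23.1 TPM in replicate 1 and 30.1 TPM in replicate 2, from 816 and 1157 counts. Hsd11b2 (ENSMUSG00000031891.6; chromosome 8, 105518755 to 105523988, plus strand) was at 0.31 and 0.21 TPM, from 15 and 11 counts. The ranges were far apart in both animals. The ratio of Hsd11b1 to Hsd11b2 was 74.5 in replicate 1 and 143 in replicate 2, with a mean of 109 ± 48.5 (SD, n = 2). Hsd11b2 rests on few counts, and its deposited credibility bounds were 0.169 to 0.477 TPM in replicate 1 and 0.105 to 0.353 TPM in replicate 2. The ratio of Hsd11b1 to H6pd was steadier, at 0.499 and 0.476.

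Receptors and targets served by this pair were measured too. The glucocorticoid receptor Nr3c1 was at 10.2 and 16.6 TPM and the mineralocorticoid receptor Nr3c2 at 6.42 and 9.77 TPM, a ratio of 1.58 and 1.70. In aldosterone target epithelia Hsd11b2 shields Nr3c2 from corticosterone. Of the 6 genes listed for such transport, 4 were detected, where 56.3% of nuclear protein-coding genes met the same rule. The highest were the kinase Sgk1 at 92.7 and 53.6 TPM, Tsc22d3 at 32.8 and 38.5 TPM and the ubiquitin ligase Nedd4l at 13.7 and 14.2 TPM. Scnn1a, the alpha subunit of the epithelial sodium channel, was close to the detection minimum at 1.01 and 1.15 TPM. Its beta and gamma subunits were not detected, with Scnn1b at 0.03 and 0.04 TPM and Scnn1g at 0.02 and 0.01 TPM.

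Hsd17b3, the enzyme that makes testosterone in the testis, was near the limit of these libraries (ENSMUSG00000033122.14; chromosome 13, 64058266 to 64089230, minus strand). It was at 0.64 TPM in replicate 1 and 0.66 TPM in replicate 2, from 10 and 11 counts. The RSEM-format tables put every one of these counts on Hsd17b3-203, a transcript of 655 bases in 4 exons that lies wholly within the exons of the full-length Hsd17b3-202 (11 exons, 1286 bases), toward the 3′ end of the gene. By kallisto 79.7% and 93.9% of the gene's TPM lay on Hsd17b3-203 and the remaining 20.3% and 6.14% on Hsd17b3-201. With so few counts, the level and the transcript shares are imprecise.

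Hsd17b12 encodes the 3-ketoacyl-CoA reductase of fatty acid elongation and is the closest relative of Hsd17b3 in this group. Hsd17b12 (ENSMUSG00000027195.10; chromosome 2, 94032689 to 94157964, minus strand) was at 53.7 TPM in replicate 1 and 54.7 TPM in replicate 2. Hsd17b3 and Hsd17b12 both have 11 coding exons, 6 of them of equal length. Compared position by position without alignment, 53.4% of the 414 bases of those exons were identical. Of the 4 highest elongation partners, 3 lay above Hsd17b12: the fatty acid elongase Elovl5 had a mean of 197 TPM, the enoyl reductase Tecr 171 TPM and the dehydratase Hacd3 133 TPM, while the elongase Elovl1 had 30.2 TPM. Of the 12 other elongation genes, 9 were detected.

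Hsd17b10 encodes a mitochondrial dehydrogenase that breaks down isoleucine and is also a subunit of mitochondrial RNase P (ENSMUSG00000025260.10; chromosome X, 152001845 to 152004442, plus strand). It was at 44.7 TPM in replicate 1 and 52.7 TPM in replicate 2. Its RNase P partners were lower, with a mean of 6.06 TPM for the methyltransferase subunit Trmt10c and 8.23 TPM for the nuclease subunit 1110008L16Rik. In the isoleucine pathway the means were 104 TPM for the hydratase Echs1, 72.9 TPM for the dehydrogenase Acadsb and 34.8 TPM for the thiolase Acat1. All 5 of these partners were detected.

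Hsd17b11, a lipid droplet enzyme, was at 27.2 TPM in replicate 1 and 32.6 TPM in replicate 2 (ENSMUSG00000029311.16; chromosome 5, 103989762 to 104021919, minus strand). Hsd17b13, its lipid droplet relative, was at 0.04 and 0 TPM. Of the 9 other 17-beta-hydroxysteroid dehydrogenases and relatives matched, 3 were detected: Hsdl2 at a mean of 27.7 TPM, Hsdl1 at 14.2 TPM and Hsd17b7, an enzyme of cholesterol synthesis, at 6.9 TPM. Hsd17b1, which makes oestradiol in the ovary, was at 0.78 and 0.62 TPM.

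Hsd17b4, the multifunctional hydratase and dehydrogenase of peroxisomal beta-oxidation, showed the largest difference between the animals of the 8 genes whose counts averaged 100 or more (ENSMUSG00000024507.6; chromosome 18, 50128201 to 50196269, plus strand). It was at 27.4 TPM in replicate 1 and 44.7 TPM in replicate 2, from 1848 and 3415 counts. Scaled counts were 1.59-fold higher in replicate 2, with an exact 95% interval of 1.5 to 1.68 that covers counting error only. Hsd17b4 was the only one of the 8 at or past 1.5-fold higher, a rule that 6.39% of 12853 nuclear genes with as many counts met. None of the 8 was 2-fold apart in either direction, against 3.51% of the 12853 genes.

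The other differences between the animals were smaller. Hsd11b1 was 1.22-fold higher in replicate 2 (1.11 to 1.33), Srd5a3 1.19-fold (1.06 to 1.35), Hsd17b11 1.11-fold (1.03 to 1.19), Hsd17b10 1.09-fold (1.00 to 1.18) and Srd5a2 1.02-fold (1.01 to 1.03). With Hsd17b4, 6 of the 8 genes had intervals above equality and 0 below, where 30.0% of the 12853 genes lay above and 26.7% below. Hsd17b12 and Srd5a1 had folds of 1.00 (0.948 to 1.06) and 0.987 (0.811 to 1.2). The sign of their log2 ratio depended on the scaling, from -0.05 to 0.04 for Srd5a1 and from -0.0046 to 0.07 for Hsd17b12. The intervals of Hsd11b2, at 0.630-fold (0.262 to 1.47), and Hsd17b3, at 0.946-fold (0.365 to 2.48), were too wide at 10 to 15 counts to show a difference. The median log2 ratio of the 8 genes (of CPM + 1, where CPM are counts scaled to a common total) was 0.13, and that of the 12853 genes was 0.012.

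**Figure D3:**
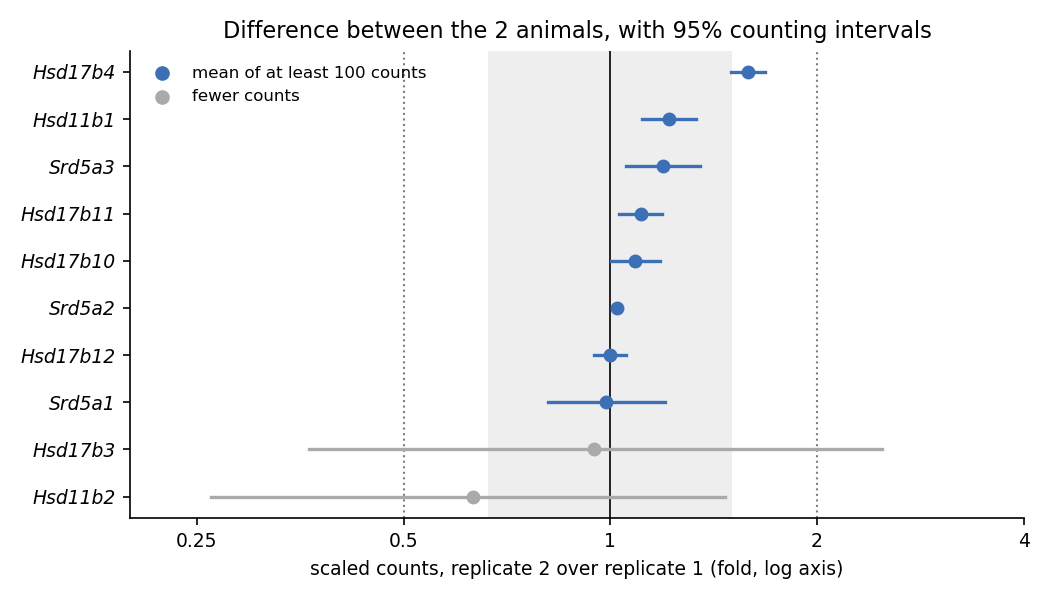
Fold of scaled counts, replicate 2 over replicate 1, with exact 95% counting intervals on a log axis. Genes averaging 100 counts or more are in blue and the others in grey, the band spans 1.5-fold either way and dotted lines mark 2-fold. Hsd17b4 at 1.59 is the 1 gene whose interval lies wholly outside the band.

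Genes of the same peroxisomal pathway as Hsd17b4 were also higher in replicate 2. Of the 11 other genes of the list with enough counts, 10 had intervals above equality and 0 below, against 30.0% above and 26.7% below over all genes, and the median log2 ratio was 0.30. Ehhadh, another hydratase and dehydrogenase of this pathway, was 2.27-fold higher (1.94 to 2.67), from 2.68 to 6.59 TPM. Scp2, which holds the thiolase of this pathway and a sterol carrier, was at 56.8 and 108 TPM, or 1.70-fold higher (1.61 to 1.80). The thiolase Acaa1a was 1.24-fold higher (1.17 to 1.31), while the oxidase Acox3 was 1.02-fold (0.971 to 1.08). Acaa1b, named after its value was seen because it and Ehhadh were the 2 genes of the list past 2-fold, was 2.61-fold higher (1.90 to 3.63).

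Cell marker lists went both ways between the animals. Chromaffin cell markers had 1 of 10 intervals above equality and 9 below, and zona fasciculata markers 0 of 8 above and 8 below. Zona glomerulosa markers with enough counts had 4 above and 5 below. Endothelial markers summed to 450 and 451 TPM, with 2 of 10 intervals above and 4 below. The lists that follow were higher in replicate 2. Of the adipocyte markers, 11 of 11 exceeded 2-fold in replicate 2 (median log2 ratio 3.02), with sums of 378 and 2610 TPM. Of the 7 brown adipocyte markers, 5 had enough counts and all 5 exceeded 2-fold, and the list, with none at 0 in both animals, summed to 27.3 and 284 TPM. Macrophage markers summed to 221 and 352 TPM, with 9 of 10 intervals above equality and 0 below, and capsule and fibroblast markers to 216 and 326 TPM, with 8 of 10 above and 0 below. Their part in the differences of Hsd17b4, Hsd11b1, Hsd17b11 and the peroxisomal genes was not tested. Of the lipid droplet genes beside Hsd17b11, all 8 with enough counts had intervals above equality. Their median log2 ratio was 1.24, and that of Hsd17b11 was 0.14; the difference was not tested. The droplet coat gene Plin1 was 3.37-fold higher (3.23 to 3.52), the lipases Pnpla2 and Lipe 2.46-fold (2.36 to 2.57) and 2.53-fold (2.43 to 2.64), and Plin2 1.08-fold (1.04 to 1.12). Plin1 is itself among the adipocyte markers.

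Partners of Hsd17b12 were mixed. Of the 9 other elongation genes with enough counts, 2 had intervals above equality and 6 below, at a median log2 ratio of -0.24. Elovl5 was 0.760-fold (0.743 to 0.778), Elovl1 0.732-fold (0.671 to 0.798) and Tecr 0.884-fold (0.847 to 0.922). The genes above equality were the dehydratases Hacd2, at 1.62-fold (1.45 to 1.81), and Hacd4, at 1.47-fold (1.24 to 1.76), while Hsd17b12 was level between the animals. Corticosteroid synthesis genes beside Srd5a2 were mostly lower in replicate 2, with 7 of 8 intervals below equality and a median log2 ratio of -0.32. Srd5a2 itself had a log2 ratio of 0.03.

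For the rest, 3 of the 5 partners of Hsd17b10 had intervals above equality and 0 below, at a median log2 ratio of 0.07. Among the 4 dolichol genes beside Srd5a3, 1 lay above and 0 below, with Dolk at 1.18-fold (1.06 to 1.32). Of the 8 NADPH and electron supply genes, 4 lay above and 2 below, and H6pd was 1.16-fold higher (1.11 to 1.2). Nr3c1 was 1.57-fold higher (1.47 to 1.69) and Nr3c2 1.41-fold (1.28 to 1.56). Hsd17b7 was 0.307-fold (0.271 to 0.348), the lowest fold of the 3 detected relatives outside the group.

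**Figure D4:**
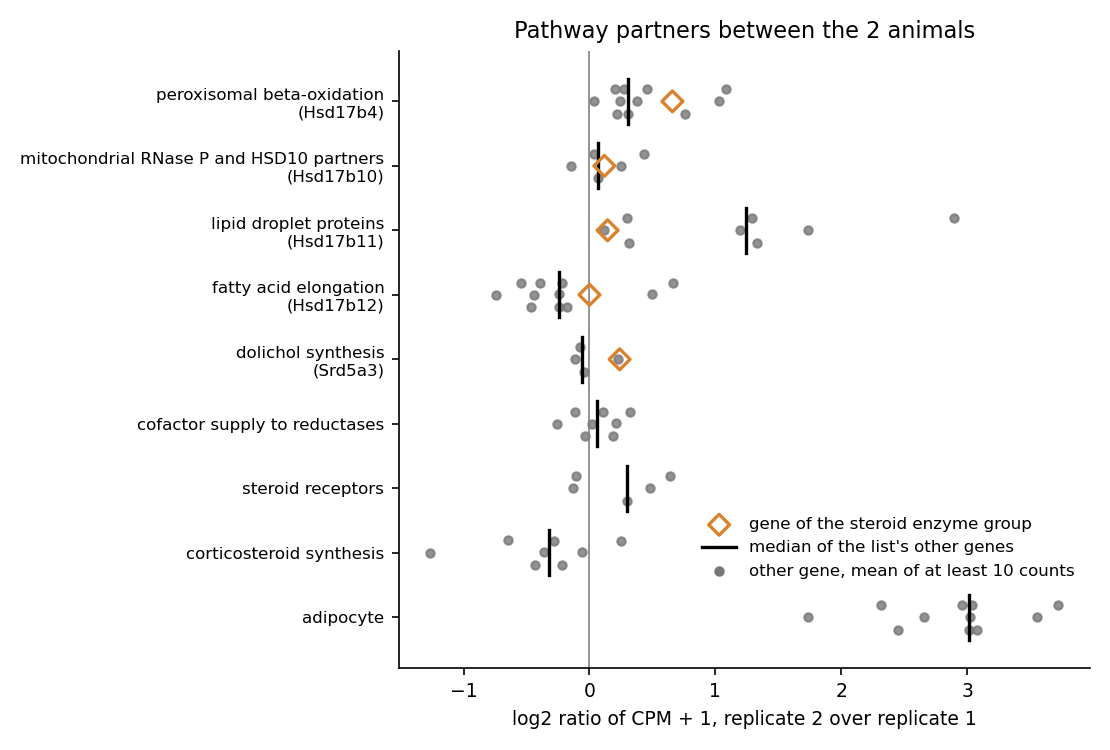
Log2 ratio of CPM + 1, replicate 2 over replicate 1, of the genes in 9 lists (grey points, 10 or more counts on average), their median (black bar) and the gene of the group that belongs to the list (orange diamond). The peroxisomal median is 0.30, the elongation median -0.24 and the adipocyte median 3.02.

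Transcripts were compared between the quantifiers whose column names the deposited tables carry, RSEM and kallisto. The 10 genes have 40 annotated transcripts, of which 11 had no count in either library by RSEM, and Srd5a2 and Hsd11b2 have 1 each. The leading transcript was the same by both quantifiers for 9 of the 10 genes. For Hsd17b11-201 the isoform percent, the share of the gene's TPM, was 97.6% and 98.0% by RSEM and 97.0% and 97.9% by kallisto. Srd5a3-201 held 79.7% and 78.2% by RSEM, and Srd5a1-202, the coding transcript, 73.5% and 94.4%. Transcripts with under 10% by RSEM are named below only where kallisto differed or the animals did, which was seen in the values.

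Hsd17b10 was the exception. By RSEM the coding transcript Hsd17b10-201 held 98.0% in replicate 1 and 94.0% in replicate 2, and Hsd17b10-204, a processed transcript with no annotated coding sequence, 1.4% and 4.05%. By kallisto the order was turned in both animals, with 21% and 18% for Hsd17b10-201 and 78.3% and 80.7% for Hsd17b10-204. The transcripts share 872 bases, and only 90 bases at the 5′ end of Hsd17b10-201 and 129 bases at that of Hsd17b10-204 tell them apart. The junction is shown because it holds the bases that separate them. Capitals mark the last 27 bases of each own stretch and lower case the first 30 shared bases (mm10, plus strand, 5′ to 3′), at chrX:152001908-152002307 with an intron between for Hsd17b10-201 and chrX:152002251-152002307 for Hsd17b10-204.
Hsd17b10-201: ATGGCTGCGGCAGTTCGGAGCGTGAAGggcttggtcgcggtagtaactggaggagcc
Hsd17b10-204: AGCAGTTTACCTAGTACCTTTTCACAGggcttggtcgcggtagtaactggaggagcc

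The gene's own level moved less than its shares: kallisto gave Hsd17b10 38.4 TPM in replicate 1 and 46.2 TPM in replicate 2. The reason for the split was not tested. Hsd11b1 showed a smaller disagreement. Hsd11b1-205, whose first exon of 128 bases is noncoding and lies 21446 bases upstream of the first exon start of Hsd11b1-201, held 93.1% and 91.7% by RSEM and 61.7% and 61.1% by kallisto. Hsd11b1-202 starts 20514 bases downstream of that exon's start, and held 0% by RSEM and 32.8% and 29.9% by kallisto. Hsd11b1-201 was minor by both, at 5% and 7.9% by RSEM. By both quantifiers most of the gene's TPM therefore lay on the transcript with the distal first exon.

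For Hsd17b12, Hsd17b12-201 held 90.5% and 99.1% by RSEM and 69.4% and 79.9% by kallisto, and the rest by kallisto lay mainly on Hsd17b12-205, a processed transcript at 29.8% and 18.8%. Hsd17b4-201 held 91.6% and 97.8% by RSEM and 72.0% and 97.0% by kallisto. In replicate 1 kallisto placed 20.4% on Hsd17b4-204, a processed transcript of 394 bases that had 0% in replicate 2 and by RSEM. The kallisto levels of Hsd17b4 were closer together, at 28.2 and 37.1 TPM, though the log2 ratio of its counts was 0.65 to 0.73 under every scaling and quantifier tried. Srd5a1-203, a processed transcript, held 16.6% in replicate 1 and 0% in replicate 2 by RSEM, from 10.2 and 0 counts.

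**Figure D5:**
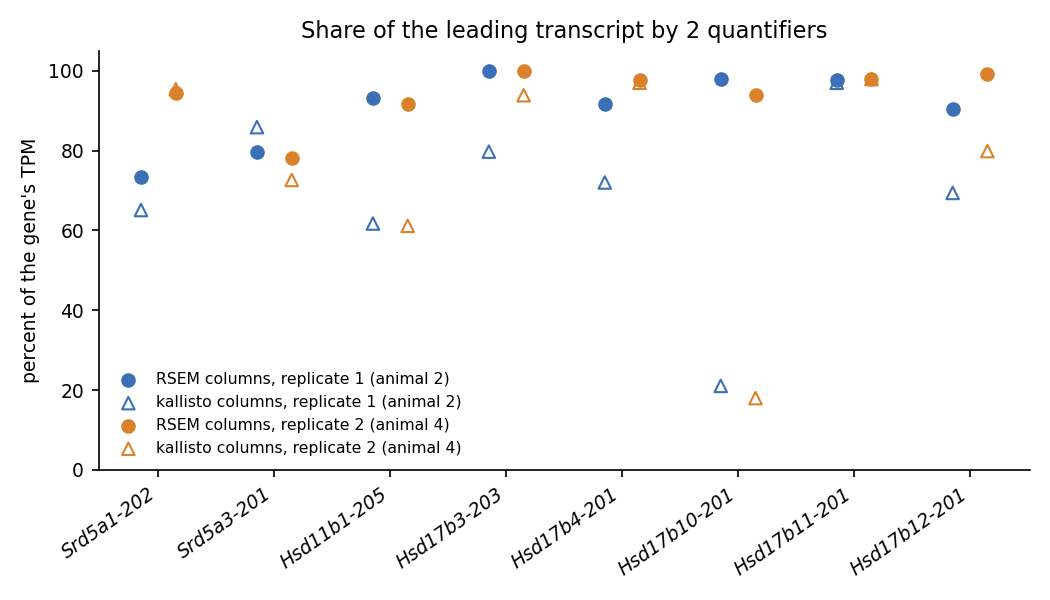
Percent of the gene's TPM on the leading RSEM transcript of the 8 genes with more than 1 transcript, by RSEM (filled circles) and kallisto (open triangles), replicate 1 in blue and replicate 2 in orange. Hsd17b10-201 falls from 98.0% and 94.0% by RSEM to 21% and 18% by kallisto.

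Genes that share exonic bases with the group took few counts. CT025731.1, on the same strand as Srd5a2, shares 144 exonic bases with it and held 34.5 and 48 counts. Gm17108, on the same strand as Srd5a1, shares 476 exonic bases and held 12.6 and 6.86 counts, so reads of Srd5a1 could have been divided with it. Nsun2, which overlaps Srd5a1 on the opposite strand, held 2060 and 2212 counts, more than Srd5a1, but shares no exonic base with it. The posterior standard deviation of the count, which the tables give for such divisions, was at most 1.85 for each of the 10 genes.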

How the data were processed

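Total RNA of 2 adrenal glands was sequenced, each library from 300 ng of RNA with a directional kit and ERCC spike-ins, per the labels. The deposited gene and transcript tables hold expected counts, not normalized, TPM, and the percent of a gene's TPM that each transcript takes, under the column names RSEM writes, per the file headers. A second transcript table holds estimated counts and TPM in the layout of kallisto, per the file headers. The authors computed TPM over all entries of a table. Posterior standard deviations and TPM credibility bounds are deposited beside them. The accompanying text gives mm10 and GENCODE M21. For the aligner and quantifiers, version numbers and the strand setting of the counting were not given by the sources used here.

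TPM were used as deposited for levels, with the mean and SD over 2 animals. A gene with at least 1 TPM in both was called detected. Replicate 2 was compared with replicate 1 after TMM scaling of rounded counts in edgeR 4.0.16 under R 4.3.3. Folds have exact conditional binomial 95% intervals (scipy 1.17.1, pandas 2.3.3, Python 3.11.15), checked on simulated data, and log2 ratios add 1 CPM. Called genes average 100 counts or more and have the stated fold and an interval that excludes equality. Medians over lists use genes averaging 10 counts or more. No p-value was computed, since each side is 1 animal and 2 animals allow no exact two-sided p below 0.5. For a gene at 0, up to 3 counts are possible, which is 0.100 CPM in replicate 1 and 0.0883 CPM in replicate 2. Intervals and floors cover counting error only. DESeq2 1.42.0 size factors, library totals, spike-in counts, kallisto values, posterior means, other minimums and single animals were the alternatives.

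All 10 genes are named with their transcripts of at least 10 percent. Other genes are named where they are a direct partner of one of the 10, or among the 4 highest of their list by mean TPM. Some genes that this rule covers are not reported here. The 10 genes and the lists were chosen with earlier results of these data known. Sequences come from GENCODE M21 transcripts and a RefSeq promoter table, in which 8 of the 10 genes matched. List symbols with no single gene ID (Hsd17b8, Nnt, Sts, Dhrsx and Prorp) were not used here.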

Additional observations from a re-analysis of the deposited data

How the results depend on the processing

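The share of Srd5a2 in the summed TPM of the reductases was 98.9% by posterior mean TPM and 99.1% by kallisto, both outside the spread of the animals but within 1 percentage point of the deposited TPM. At 1.5-fold either way in place of 2-fold, 1 of the 8 genes averaging 100 counts or more (Hsd17b4) was apart between the replicates. By the same rule 10.1% of the 12853 genes were apart. At 2-fold the number was 0 with other scalings, lower count minimums and kallisto counts, where 3.39% to 8.60% of all genes were apart. Hsd17b3 was also detected at a minimum of 0.5 TPM, and Srd5a1 was no longer detected at 5 TPM. The share of all genes past these minimums was not computed. The ratio of Hsd11b1 to Hsd11b2 was 104 by posterior mean TPM, 132 by kallisto, and 74.5 or 143 from 1 animal alone. Mean levels moved beyond the spread of the animals for 5 of the 10 genes by kallisto, and for all 10 on the scale of nuclear protein-coding genes. Shares of the leading transcript moved beyond that spread for 6 of the 10 by kallisto, most for Hsd17b10-201. The cause was not tested. Srd5a2 was the 1 gene whose log2 ratio left its counting interval, at 0.07 by totals, 0.10 by spike-in counts and 0.09 by kallisto. There is 1 group, so no paired comparison of conditions was possible. With 2 animals the SD is itself imprecise, and Hsd11b2 and Hsd17b3 rest on 10 to 15 counts. Whether whole-gland levels reflect 1 cell layer was not analysed here.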
